A study of Homo sapiens with 4 samples.

Results

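The interferon-type chemokine genes CXCL10, CXCL11, CXCL9, CCL5 and CX3CL1 were followed in HEK293, a line derived from human embryonic kidney. The members are the 5 genes named, found through the platform annotation, which assigned 1 probe to each of them, so 5 of 21706 named probes and 5 of 18639 measured genes. RNA was measured on 4 single-colour arrays, 1 for each group. The groups were LGP2-4KR transgenic (4KR) cells and LGP2 transgenic (LGP2) cells stimulated for 12 h with short poly I:C, transfected at 100 ng/ml with a lipid reagent, and unstimulated 4KR and LGP2 cells. LGP2, encoded by DHX58, belongs to the RIG-I-like receptors, a family of RNA helicases. The abbreviation 4KR, the promoter of the transgenes and whether a line is 1 clone are not given in the sources used here. Every group carried a transgene, and no array came from cells without one or from cells transfected without poly I:C. Poly I:C, the transfection itself and 12 h of culture thus act together in each ratio and cannot be told apart. The deposited DHX58 intensity was 42.6 and 51.0 in stimulated 4KR and LGP2 cells and 22.8 and 41.4 in unstimulated 4KR and LGP2 cells, from 1 signal that does not separate the transgenes from the cells' own gene.

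Short poly I:C is a synthetic double-stranded RNA that RIG-I-like receptors sense in the cytoplasm. Their adaptor MAVS switches on the transcription factors IRF3 and NF-kB, which bind the promoters of interferon beta and of several chemokine genes, and secreted interferon adds a further wave of transcription. CXCL9, CXCL10 and CXCL11 are ligands of CXCR3, a receptor of activated T cells and natural killer cells. CCL5 attracts T cells and monocytes, and CX3CL1 is a membrane-tethered chemokine whose receptor is CX3CR1. CXCL9 is known mainly as a target of interferon gamma.

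CXCL9, CXCL10 and CXCL11 lie side by side on chromosome 4, with ART3 the only other protein-coding gene in that stretch of the RefSeq annotation. CCL5 is on chromosome 17 and CX3CL1 on chromosome 16. Promoter windows of 300 bases, from 250 before to 50 after the transcript start, were taken from RefSeq (GRCh38.p14) and matched 3 of the 5 genes. They are shown because CXCL10 and CXCL11 passed 2-fold at 12 h while their neighbour CXCL9 did not with the main background correction. With plain subtraction of the blank mean and in the authors' deposited table CXCL9 passed as well. A link between the motifs and the ratios was not tested. All 3 read on the minus strand, at chr4:76023448-76023747 for CXCL10, chr4:76036021-76036320 for CXCL11 and chr4:76007460-76007759 for CXCL9. Capitals mark matches, on either strand, to the interferon-stimulated response element, searched as GAAA and GAAA with any 2 bases between them, or to the narrower of 2 NF-kB motifs, searched as GGGA and CC with any 4 bases between them.
CXCL10: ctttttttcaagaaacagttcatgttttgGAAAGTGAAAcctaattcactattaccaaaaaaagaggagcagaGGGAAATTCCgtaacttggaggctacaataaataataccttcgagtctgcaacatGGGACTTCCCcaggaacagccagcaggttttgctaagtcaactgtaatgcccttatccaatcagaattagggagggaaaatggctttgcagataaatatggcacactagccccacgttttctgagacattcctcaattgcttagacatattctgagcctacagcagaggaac
CXCL11: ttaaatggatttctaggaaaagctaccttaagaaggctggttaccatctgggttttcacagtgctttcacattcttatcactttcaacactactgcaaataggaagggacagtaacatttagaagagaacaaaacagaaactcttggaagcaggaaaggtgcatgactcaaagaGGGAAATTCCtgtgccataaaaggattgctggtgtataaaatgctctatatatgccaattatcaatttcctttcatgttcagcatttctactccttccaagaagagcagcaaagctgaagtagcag
CXCL9: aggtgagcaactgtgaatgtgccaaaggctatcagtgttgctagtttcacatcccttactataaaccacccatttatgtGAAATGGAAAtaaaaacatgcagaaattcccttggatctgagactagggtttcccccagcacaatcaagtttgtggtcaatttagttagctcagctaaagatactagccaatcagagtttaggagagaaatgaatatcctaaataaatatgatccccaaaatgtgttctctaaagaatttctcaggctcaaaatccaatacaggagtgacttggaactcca

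The CXCL10 window held the response element GAAAGTGAAA, starting 221 bases before the transcript start, and the NF-kB motifs GGGAAATTCC and GGGACTTCCC, starting 177 and 122 bases before it. The motif at 122 bases matched on either strand, so the narrower motif gave 3 matches in all. The CXCL11 window held the same GGGAAATTCC at 76 bases and an AP-1 motif, TGACTCA, at 87 bases. The response element was not found in it. The CXCL9 window held GAAATGGAAA at 171 bases, and of the NF-kB motifs only the wider form, GGG and CC with any 5 bases between them, at 125 bases. That wider motif includes every narrower match and overlapped itself here, with 4 matches in CXCL10, 1 in CXCL11 and 3 in CXCL9.

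**Figure D1:**
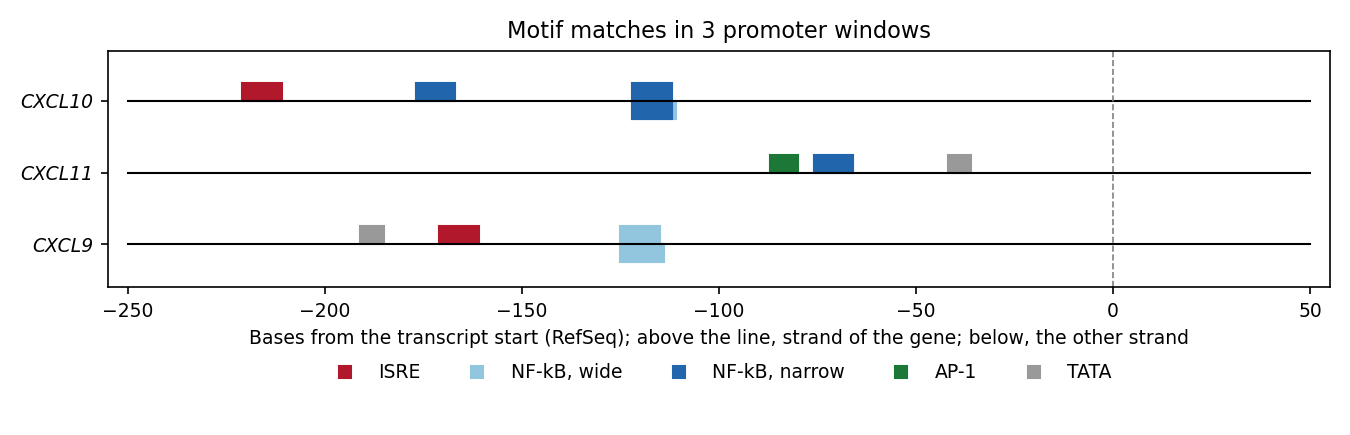
Motif matches in the promoter windows of CXCL10, CXCL11 and CXCL9, by distance in bases from the RefSeq transcript start (dashed line). Boxes above a line are on the strand of the gene and boxes below it on the other strand; CXCL10 has a response element at 221 bases and narrower NF-kB motifs at 177 and 122 bases before the start.

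Of 35116 promoter windows in the table, 3.57% held the response element, 25.6% the narrower NF-kB motif, 58.7% the wider one, 7.71% the AP-1 motif TGANTCA and 11.5% TATAAA, counting both strands. TATAAA was found once in the CXCL11 window, starting 42 bases before the transcript start. It was found once in that of CXCL9, much further away at 191 bases, and not in that of CXCL10. A match is a string of letters and does not show that a factor bound there. Of the 59 genes at least 2-fold higher at 12 h in both lines, chosen by these data, 50 had a window, and 21 of these (42.0%) held the response element, against 4.12% of the 14573 measured genes with a window. TATAAA was in 15 of the 50, against 12.0% of measured genes, the AP-1 motif in 8 against 8.08%, the narrower NF-kB motif in 24 against 35.2% and the wider one in 39 against 73.2%.

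On each array 384 blank spots set the background, and detection meant a signal above their mean plus 2 SD. That threshold was 51.7 and 47.7 scanner units in stimulated 4KR and LGP2 cells and 46.1 and 47.9 in unstimulated 4KR and LGP2 cells. Between 83.2% and 89.2% of gene probes were detected on an array, with a median signal of 43.0 to 62.8 units above the blank mean and a SD of the blank spots of 1.05 to 1.28. With 1 array in each group there was no spread between replicates, and precision is limited by there being 4 arrays. Of the 7 markers listed for HEK293, 6 were on the array and all 6 were detected on all 4 arrays; NEFL alone among them passed the additive fit described further on, at a log2 ratio of -0.36 in 4KR cells and -0.40 in LGP2 cells, and CDH2 was at -0.20 and -0.78. Of 10 leukocyte markers on the array, 7 were detected on at least 1 array, among them CD14, CD3D at -0.10 in 4KR cells and -0.16 in LGP2 cells and CD3E at -0.06 and -0.04, and PTPRC, the pan-leukocyte gene CD45, on none. With the main background correction, described further on, none of the 7 differed by 1.5-fold or more at 12 h in either line. Of all genes 1.99% did so in 4KR cells and 2.34% in LGP2 cells. In the authors' deposited table ITGAM was 2.17-fold higher in 4KR cells, from 2.60 against 1.20, its 0 h spot being not above background. There 3.34% of all genes were 2-fold higher. Of 5 endothelial markers, PECAM1 and TEK were not detected, and CDH5, VWF and KDR were detected on at least 1 array. With the main correction 0 of them passed 1.5-fold, KDR being at -0.04 in 4KR cells and -0.09 in LGP2 cells. With plain subtraction of the blank mean, CDH5 was at -1.36 or lower in LGP2 cells and CDH2 at -1.105. In that setting 177 genes in all were 2-fold lower in LGP2 cells. The part of other cell types in the results was not tested.

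CXCL10, a T cell attractant and one of the best-known targets of the RIG-I-like receptor pathway, was not above background in unstimulated cells and bright at 12 h. Its spot gave 2269 scanner units at 12 h against 42.2 at 0 h in 4KR cells, and 1899 at 12 h against 44.9 at 0 h in LGP2 cells. The 0 h spots were below the mean blank spot, at -1.79 units from it in 4KR cells and -0.88 in LGP2 cells. Both unstimulated arrays stood at the level of empty spots and both stimulated arrays far above it. Among all gene probes, 88.0% and 89.2% were detected in stimulated 4KR and LGP2 cells. In unstimulated 4KR and LGP2 cells 83.8% and 83.2% were. The share of all genes that went from not detected to detected is not given here. In the authors' deposited table, scaled so that each array has a median of 25, the intensity was 919.4 and 940.2 in stimulated 4KR and LGP2 cells and empty in both unstimulated groups.

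CCL5 had the same on-off pattern. Its spot gave 997.3 units at 12 h against 43.7 at 0 h in 4KR cells, and 848.9 at 12 h against 44.5 at 0 h in LGP2 cells. The deposited intensities at 12 h were 392.8 and 407.5 in 4KR and LGP2 cells, with empty cells at 0 h.

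CXCL11, the third CXCR3 ligand, gave 340.1 units at 12 h against 43.2 at 0 h in 4KR cells, and 295.1 at 12 h against 44.6 at 0 h in LGP2 cells. It was detected on both stimulated arrays and on neither unstimulated one. The deposited intensities at 12 h were 120.5 and 126.7 in 4KR and LGP2 cells. In RNA of whole cultures, more cells with a transcript and more transcript in each cell cannot be told apart.

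CXCL9 was dim on every array but detected on all 4. Its spot gave 78.5 units at 12 h against 52.1 at 0 h in 4KR cells, and 68.8 at 12 h against 51.5 at 0 h in LGP2 cells. Above the blank mean these are 29.4 against 8.13 units in 4KR cells and 23.5 against 5.79 units in LGP2 cells. Both stimulated values lay above both unstimulated values, as they also did for CX3CL1. The stimulated arrays were brighter as a whole. Their detected probes had a median of 62.8 units above the blank mean in 4KR cells and 51.9 in LGP2 cells. On the unstimulated arrays it was 43.0 and 44.5. The share of all genes that separated in this way is not given here. The deposited intensities were 12.2 at 12 h against 4.90 at 0 h in 4KR cells, and 11.9 against 3.39 in LGP2 cells.

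CX3CL1 was also dim and detected on all 4 arrays, with no clear difference between the times once the arrays were normalized to each other. Above the blank mean its spot gave 16.5 units at 12 h against 11.3 at 0 h in 4KR cells, and 17.3 at 12 h against 11.3 at 0 h in LGP2 cells. The deposited intensities, which are scaled per array, were 6.90 at 12 h against 6.80 at 0 h in 4KR cells and 8.80 against 6.59 in LGP2 cells.

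**Figure D2:**
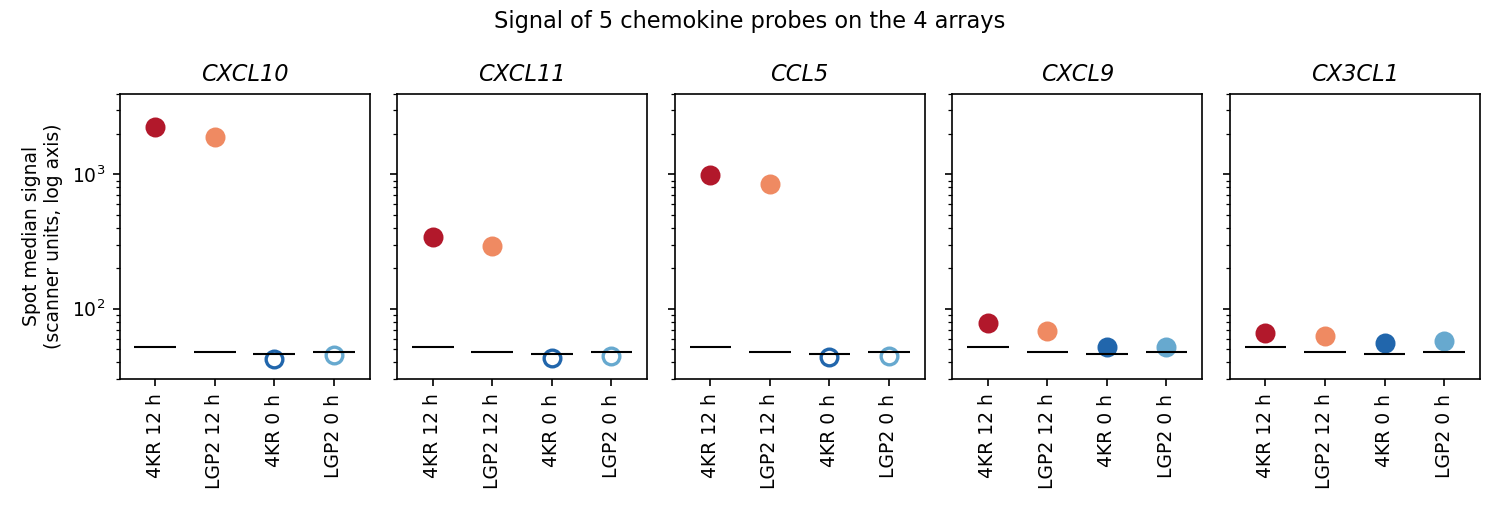
Spot median signal of the 5 chemokine probes in scanner units (log axis) on the 4 arrays, 1 point per array. Short black lines mark the detection threshold of each array and open points are not detected; CXCL10, CXCL11 and CCL5 are open at 0 h and far above the line at 12 h, while CXCL9 and CX3CL1 stay near it on all 4 arrays.

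The response to stimulation was then taken as a log2 ratio of 12 h over 0 h in each line, after background correction with an offset of 50 and quantile normalization. In 4KR cells CXCL10 was at least 34.4-fold, CCL5 at least 14.6-fold and CXCL11 at least 4.92-fold higher at 12 h. In LGP2 cells the bounds were 31.5-fold, 13.7-fold and 4.76-fold. These are lower bounds because the genes were not above background at 0 h: the denominator is the lowest detected probe of that array, or the gene's own level where that was higher. CXCL9 had log2 ratios of 0.24 in 4KR cells and 0.28 in LGP2 cells, and CX3CL1 of -0.04 and 0.02. So 3 of the 5 genes passed 2-fold in each line, where 0.406% of 16751 genes did so in 4KR cells and 0.43% of 16959 in LGP2 cells. None was 2-fold lower, as 0.00597% and 0.0118% of all genes were. All genes gave 68 higher and 1 lower in 4KR cells (273 and 107 with plain subtraction of the blank mean), and 73 and 2 in LGP2 cells (328 and 177).

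The offset shrinks ratios of dim genes, and it set the size of these bounds. With an offset of 16, CXCL10 was at least 84.6-fold higher at 12 h in 4KR cells and 76.8-fold in LGP2 cells. With plain subtraction the bounds were 618.0-fold and 519.1-fold for CXCL10, 252.2-fold and 217.3-fold for CCL5, and 73.2-fold and 64.7-fold for CXCL11, in 4KR and LGP2 cells. CXCL9 passed 2-fold only without the offset, at 2.11-fold in 4KR cells and 2.68-fold in LGP2 cells with plain subtraction, where 1.63% and 1.93% of genes passed. In the authors' deposited table CXCL9 was 2.49-fold and 3.51-fold higher, where 3.34% and 6.21% of genes passed 2-fold. CX3CL1 stayed under 1.5-fold in each of these settings. With 1 library to a group the call of CXCL9 thus depended on the background handling.

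**Figure D3:**
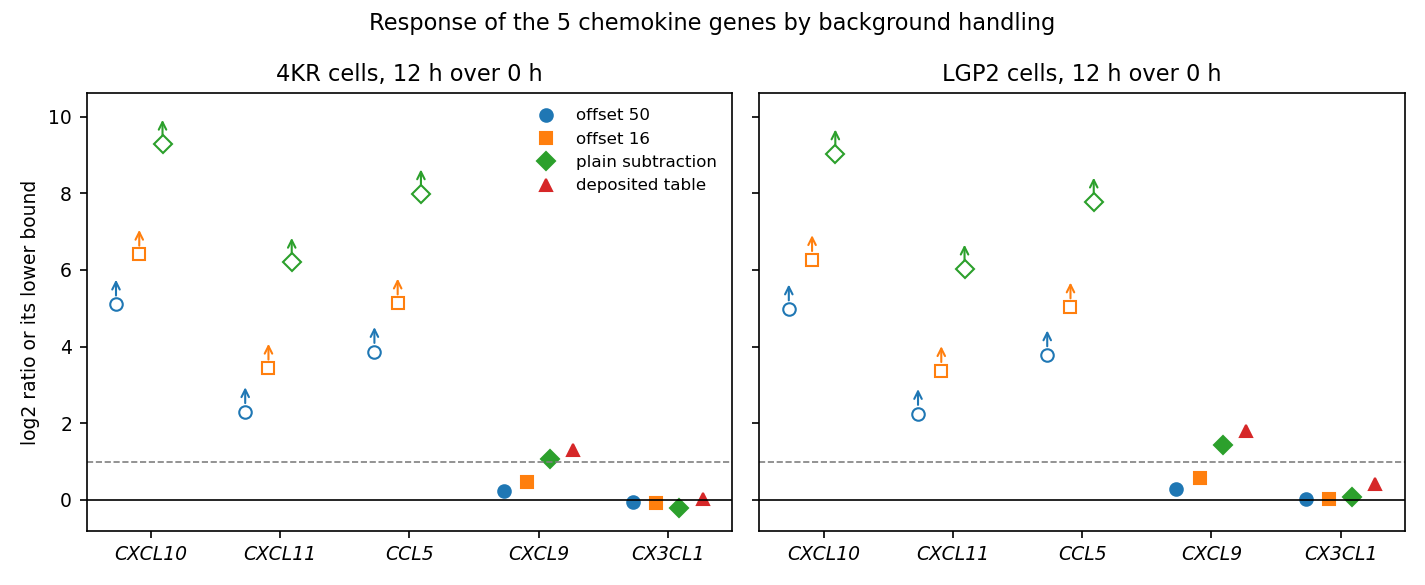
Log2 ratio of 12 h over 0 h for the 5 genes in 4KR cells (left) and LGP2 cells (right) under 4 ways of handling the background, with the dashed line at 2-fold. Open symbols with arrows are lower bounds; CXCL10, CCL5 and CXCL11 pass 2-fold in each setting that gave them a value, CXCL9 passes it in the deposited table and with plain subtraction, and CX3CL1 in none.

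The design allows 1 test across genes, an additive limma fit of line and stimulation over 17085 detected genes, in which the lines stand in for replicates and 1 residual degree of freedom is left per gene. Its p-values therefore set the mean response against the disagreement between the lines, which may be technical. limma mixes each gene's own disagreement with a variance shared over all genes, which here weighed 2.28 degrees of freedom. Without normalization between arrays the shared variance replaced the gene's own. CXCL10, CCL5 and CXCL11 entered the fit through their 12 h arrays alone, and their 0 h values are those of spots not above background, so the fit is no test for them and the bounds above stand in its place. CXCL9 and CX3CL1 were detected on all 4 arrays. Averaged over the lines, the log2 difference of 12 h minus 0 h was 0.26 ± 0.03 for CXCL9 (SE; limma adjusted p = 0.0318) and -0.01 ± 0.03 for CX3CL1 (limma adjusted p = 0.845). Over all genes the fit called 7.95% higher and 7.3% lower, or 1359 and 1247 genes. The split was 74 and 0 with plain subtraction, 6927 and 21 without normalization between arrays and 4038 and 3312 with median scaling. With plain subtraction CXCL9 did not pass (limma adjusted p = 0.0904, against 0.000916 to 0.0368 in the other settings).

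The next comparison asked whether 4KR and LGP2 cells differed in these genes, and the differences were small. At 12 h the log2 ratio of 4KR over LGP2 cells was 0.12 for CXCL10, 0.08 for CCL5, 0.04 for CXCL11, 0.03 for CXCL9 and -0.06 for CX3CL1. None of the 5 reached 1.5-fold, as 0.0938% of 17063 genes did (0.0117% were 2-fold higher and 0.0% lower), and 15.1% of the genes detected on both arrays had a larger absolute ratio than CXCL10. In the authors' deposited table CXCL10, CCL5 and CXCL11 stood at -0.03, -0.05 and -0.07, where the median of all genes was -0.11, so the sign of these differences depends on the scaling. In that table CX3CL1 was at -0.35 and CXCL9 at 0.04. Without normalization between arrays CX3CL1 was at 0.02, where the median of all genes was 0.10.

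At 0 h only CXCL9 and CX3CL1 were above background. The log2 ratio of 4KR over LGP2 cells was 0.06 for CXCL9 and -0.0025 for CX3CL1, neither past 1.5-fold, as 0.471% of 16140 genes were, with 0.0124% of genes 2-fold higher and 0.0062% lower. Plain subtraction put CXCL9 at 0.44 and the deposited table at 0.53, from the intensities of 4.90 and 3.39 given above. The response in 4KR cells minus that in LGP2 cells was -0.04 for CXCL9 and -0.06 for CX3CL1, neither past 1.5-fold, as 0.877% of 15738 genes were, with 0.0254% past 2-fold upward and 0.0318% downward. For CXCL10, CCL5 and CXCL11 it has no value, since neither line had a signal at 0 h. In the additive fit the line term, 4KR minus LGP2, was 0.04 ± 0.03 for CXCL9 (SE; limma adjusted p = 0.886) and -0.03 ± 0.03 for CX3CL1 (limma adjusted p = 0.921). That term called 0 of all 17085 genes (0.0% higher and 0.0% lower), with 828 at an unadjusted p under 0.05. A term that misses the threshold does not show that the lines act alike.

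The probes of the 5 genes lie in print blocks 10, 12, 13, 15 and 18 of the array. The median log2 ratio of all probes of those blocks stayed between -0.02 and 0.02 in the comparisons of times and of lines. Blocks 21 and 24, where the difference of the responses had medians of -0.10 and 0.16, held none of them.

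The genes most like each chemokine over the 4 arrays were found by the Euclidean distance between log2 levels centred on each gene's mean, among 16586 other genes detected on both stimulated arrays. For CXCL10 they were ISG15, a ubiquitin-like modifier, at 0.34, IFIT2, an RNA-binding antiviral protein, at 0.61 and OASL at 0.67. For CCL5 they were IFNB1, which encodes interferon beta, at 0.13, RIGI, the RNA sensor RIG-I, at 0.21 and CXCL8, a neutrophil-attracting chemokine, at 0.55. For CXCL11 they were IFIH1, the RNA sensor MDA5, at 0.07, EGR1, an immediate early transcription factor, at 0.13 and IFITM1, a restriction factor of virus entry, at 0.15. CXCL9 lay closest to ZSCAN12, LANCL2 and SS18L2P1, at distances up to 0.01, and CX3CL1 to POU3F4, IGSF9B and ADGRE2, within 0.0047. The 0 h levels of CXCL10, CCL5 and CXCL11 in this measure are those of spots below background, and small distances among genes that hardly moved carry little information.

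Outside the 5 genes, few chemokine genes passed 2-fold. All log2 ratios of list genes here use the offset of 50 unless another handling is named, and other handlings of the background were added after the data were seen. The counts below are to be read against all genes, of which 0.406% passed 2-fold upward in 4KR cells and 0.43% in LGP2 cells, and 7.95% were higher and 7.3% lower in the additive fit. Of all genes with a ratio in the authors' deposited table, 3.34% and 6.21% passed 2-fold. Counts in the fit are over list genes detected on all 4 arrays. Of 12 other CXC chemokine genes detected, 2 were at least 2-fold higher in each line, and the list's median log2 ratio was -0.01 in 4KR cells and 0.00 in LGP2 cells, where that of all genes was -0.01 in each line. These were CXCL8, at 3.47 in 4KR cells and 3.29 in LGP2 cells, and CXCL2, also an attractant of neutrophils, at 2.58 and 2.59. CXCL3, of the same subgroup, was at 0.40 in each line and passed the additive fit (limma adjusted p = 0.0242), as did CXCL2 and CXCL8, 3 of 9 in all. In the authors' deposited table CXCL3 was 2.14-fold higher in 4KR cells and 2.33-fold in LGP2 cells. There, 4 of 12 genes passed 2-fold in 4KR cells, CXCL17 among them, and 3 of 10 in LGP2 cells. CXCL17 rested on intensities of 2.50 at 12 h against 1.20 at 0 h in 4KR cells, where its 0 h spot was not above background. Of 21 other CC and C chemokine genes, 0 passed 2-fold with the offset of 50 and 2 in each line with plain subtraction, CCL2 and CCL20. CCL2, a monocyte attractant, was at 0.56 in 4KR cells and 0.73 in LGP2 cells, but 4.30-fold and 7.72-fold higher in the authors' deposited table, from intensities of 22.8 and 27.9 at 12 h against 5.30 and 3.61 at 0 h. CCL20, the ligand of CCR6, was at 0.65 in LGP2 cells, and in 4KR cells, where it was not above background at 0 h, at no less than 0.64. Its ratio in LGP2 cells was 13.1-fold in the authors' deposited table. There, 1 of 18 genes of the list passed 2-fold in 4KR cells and 4 of 20 in LGP2 cells, CCL23 and CCL27 besides CCL2 and CCL20. Both were dim in LGP2 cells, CCL23 at 4.00 against 1.46 and CCL27 at 2.20 against 1.01. The 0 h spot of CCL27 was not above background. By the fit CCL2 alone of 18 was higher (limma adjusted p = 0.025).

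Receptor genes of the 5 chemokines differed little between the times. Of 7 on the array, 3 were detected on all 4 arrays, 0 passed 1.5-fold in either line with the offset of 50 and 0 of the 3 passed the additive fit. By the authors' deposited table, 5 of the 7 had a ratio in 4KR cells and 4 in LGP2 cells. GPR75 was 2.03-fold higher there in LGP2 cells, and the other ratios stayed under 2-fold. Genes without a ratio in that table cannot be judged by it. CXCR3, the shared receptor of CXCL9, CXCL10 and CXCL11, was at -0.08 in 4KR cells and 0.01 in LGP2 cells, and ACKR3, a scavenger that binds CXCL11, at -0.05 and -0.01. CX3CR1, the receptor of CX3CL1, was detected on the stimulated LGP2 array alone. Of 14 other chemokine receptor genes 9 were detected, with 0 past 1.5-fold, CXCR4 at -0.04 and -0.08 and CXCR6 at -0.11 and -0.09.

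Genes upstream of the chemokines moved in part. Of 10 cytokine genes known to induce them, 2 passed 2-fold in each line: IFNB1, at 4.04 in 4KR cells and in LGP2 cells, and IFNL3, a lambda interferon, at 1.18 in 4KR cells and at no less than 1.18 in LGP2 cells, where it was not above background at 0 h. The offset shrank these ratios: with plain subtraction IFNL3 was 19.4-fold and IFNL1, also a lambda interferon, 16.3-fold higher in 4KR cells, and both at least 16.1-fold higher in LGP2 cells, so that with the TNF bounds 4 of 10 passed 2-fold in each line. IFNG, the gene of interferon gamma, was not above background at 0 h and had deposited intensities of 2.30 and 2.60 at 12 h in 4KR and LGP2 cells. The list had a median of 0.02 in 4KR cells and 0.01 in LGP2 cells, and of the 5 genes detected on all 4 arrays IFNB1 alone passed the additive fit (limma adjusted p = 0.00124). Of 17 transcription factor genes, 5 passed 2-fold in each line, where 0.406% and 0.43% of all genes did, and 9 were higher in the additive fit, where 7.95% of all genes were, with a list median of 0.50 in 4KR cells and 0.75 in LGP2 cells. The authors' deposited table had 8 past 2-fold in 4KR cells and 10 in LGP2 cells. The 5 were ATF3 at 2.15 and 2.58, IRF7 at 2.02 and 1.80, IRF1 at 1.65 and 1.80, JUN, a subunit of AP-1, at 1.38 and 1.90 and IRF9 at 1.26 and 1.30. IRF3 and RELA, the factors that act early in the pathway, were at -0.07 and 0.01 in 4KR cells and at -0.08 and 0.01 in LGP2 cells.

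**Figure D4:**
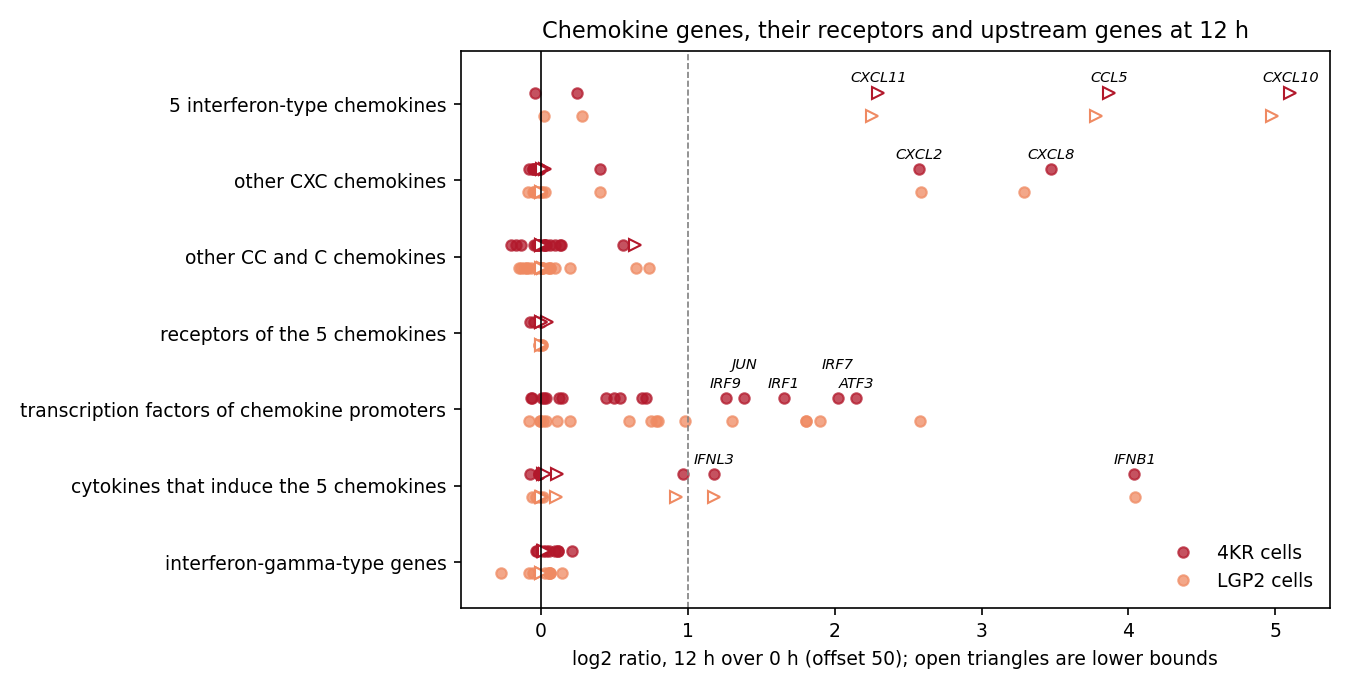
Log2 ratio of 12 h over 0 h with an offset of 50 for the 5 chemokines and 6 gene lists in 4KR cells (upper row of each list) and LGP2 cells (lower row). Each row has 1 point per gene with a ratio or bound in both lines, so CX3CR1 is not shown. Open triangles are lower bounds and the dashed line marks 2-fold; CXCL10, CCL5 and CXCL11 stand to its right, beside CXCL8 and CXCL2 among the other CXC chemokines, and receptor genes lie near 0.

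Genes known as interferon gamma targets, the class to which CXCL9 belongs, had ratios near 0 with the offset of 50. Of 11 detected, 0 passed 1.5-fold in either line with it and 0 of 9 passed the additive fit, with a list median of 0.03 in each line. GBP5, a guanylate-binding protein, was at 0.12 in 4KR cells and 0.06 in LGP2 cells, and BATF2, a transcription factor, at 0.10 and 0.14. In the authors' deposited table, where CXCL9 also passed 2-fold, BATF2 was 2.07-fold higher in 4KR cells and 2.92-fold in LGP2 cells and GBP5 2.30-fold and 1.92-fold. There 3 of 11 passed 2-fold in 4KR cells, with CD74 the third, and 1 in LGP2 cells. CD74 rested on intensities of 2.4 at 12 h against 1.0 at 0 h in 4KR cells, where its 0 h spot was not above background. With plain subtraction GBP1 passed in 4KR cells and GBP1 and BATF2 in LGP2 cells. Of 8 detected receptor genes of the inducing cytokines 0 passed 1.5-fold, and their median was 0.06 in 4KR cells and -0.01 in LGP2 cells. IFNGR1, a chain of the interferon gamma receptor, was at 0.47 and 0.42 and alone among the 8 passed the additive fit (limma adjusted p = 0.0242), and IFNAR2 was at -0.04 and -0.20.

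Among negative feedback genes, 3 of 10 passed 2-fold in each line (5 of 10 in the authors' deposited table and with plain subtraction) and 5 were higher in the additive fit, against 7.95% of all genes, with a median of 0.22 in 4KR cells and 0.26 in LGP2 cells. TNFAIP3, an inhibitor of NF-kB signalling, was at 3.07 and 3.08, NFKBIA, the inhibitor that holds NF-kB in the cytoplasm, at 2.60 and 2.13, and USP18, a brake on interferon signalling, at 1.76 and 1.58. Of 8 genes of proteases that cut or shed chemokines, 0 passed 1.5-fold, with medians of -0.04 and -0.01. ADAM10, which sheds CX3CL1, was at -0.21 in 4KR cells and -0.06 in LGP2 cells, and ANPEP, at -0.20 and -0.31, was the only one of the 8 to pass the additive fit (limma adjusted p = 0.0494). Of 11 genes for the glycosaminoglycan chains and core proteins that hold chemokines at the cell surface, 2 were higher and 3 lower by that fit, where 7.95% and 7.3% of all genes were, with medians of -0.05 and 0.02. SDC4, a syndecan, was at 0.64 in 4KR cells and 0.43 in LGP2 cells (3.50-fold and 2.58-fold in the authors' deposited table), and SDC2 at -0.38 and -0.27.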

How the data were processed

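RNA of 4 HEK293 cultures was hybridised to 1 array each. Per the labels' protocols, RNA was amplified to amino allyl aRNA and coupled to Cy5. Per the file headers, the deposited scanner tables give the median intensity of each spot, not normalized. A second table that the authors deposited gives 1 intensity per probe; it was matched here by subtracting roughly the blank mean from the spot median and scaling each array to a median of 25 (largest residual 0.053). The rule behind its empty cells is not given here.

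Because the scanner's own background column tracked the spot signal (correlation of logarithms at least 0.99), the mean of 384 blank spots served as background. Correction used normexp with an offset of 50 (limma 3.58.1, R 4.3.3), followed by quantile normalization of 24460 gene probes and log2. Probes of a gene were averaged, 1 rejected probe was left out and 2753 unnamed probes were not used. Symbols came from the platform annotation. Ratios were called past 2-fold, and only the additive limma fit has p-values, adjusted by the Benjamini-Hochberg method. The functions were tested on simulated data. Alternatives were a smaller offset, plain subtraction, other scaling, the deposited table, position correction, stricter detection, all genes and a variance trend.

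The members and lists were chosen with earlier results of these data known. Named were the 5 members, list genes past 2-fold in either line or else the 2 with the largest absolute mean response, and the 3 genes most like each member. CXCL3, CXCL17, CCL23, CCL27, CX3CR1, GPR75, IFNL1, TNF, IFNG, IRF3, RELA, GBP1, CD74, CD14, ITGAM, VWF and the markers not detected were chosen after their values were seen.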

Additional observations from a re-analysis of the deposited data

Results flagged for a closer look

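CX3CL1 was picked out because its response ran in opposite directions in the lines, with a log2 ratio of 12 h over 0 h of -0.04 in 4KR cells and 0.02 in LGP2 cells. The difference of -0.0595 was not tested, since each group had 1 array, and 50.1% of the 15738 genes detected on all arrays had a larger absolute difference. Without normalization between arrays the 2 ratios were 0.11 and 0.09, and in the authors' deposited table they were 0.02 and 0.42.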

How the results depend on the processing

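Replicates could not be paired because each group had 1 array and no replicate numbers. The additive fit itself takes the difference of the times within each line. No replicate could be left out for the same reason. In both lines 3 of 5 chemokine genes passed 2-fold at 12 h under each setting that gave all 5 a value, except with plain subtraction. That setting added CXCL9 for 4. The deposited table gave no ratio for CXCL10, CXCL11 and CCL5, whose 0 h cells are empty. There CXCL9 passed 2-fold in both lines and CX3CL1 in neither. No chemokine gene passed 2-fold between the lines or in the difference of the responses under the settings that gave a value. Of CXCL9 and CX3CL1, the chemokine genes detected on all 4 arrays, CXCL9 passed the additive fit, except with plain subtraction. The median response of all genes moved to 0.26 in 4KR cells and 0.12 in LGP2 cells without normalization between arrays, and to 0.15 and 0.25 in the deposited table.

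Counts over all genes moved far more, and the causes were not tested. The responses gave 68 genes higher in 4KR and 73 in LGP2 cells, against 119 in LGP2 cells with offset 16, 273 and 328 with plain subtraction, 418 and 177 without normalization, 109 in 4KR cells with median scaling and 541 and 1001 in the deposited table. Lower were 1 and 2 genes, against 9 and 12, 107 and 177, 0 and 0 without normalization, 20 and 24 in the deposited table and 1 in LGP2 cells with position correction. For the difference of the responses the 4 higher and 5 lower genes became 15 and 11 with offset 16, 128 and 82 with plain subtraction, 20 and 1 without normalization, 11 and 2 with median scaling and 81 and 225 in the deposited table, and 3 were lower with position correction. Between the lines at 12 h, 2 and 0 became 116 and 67 with plain subtraction and 41 and 106 in the deposited table, with 3 lower at offset 16 and 4 higher without normalization. At 0 h, 2 and 1 became 7 and 8, 30 and 55, 0 and 6, 0 and 5 with median scaling, and 44 and 52 in the deposited table. The line term of the fit called 0 genes, but 17 higher and 20 lower without normalization and 3 and 20 with median scaling.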
